A study of Mus musculus with 2 samples.

Results

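Matrix metalloproteinase (Mmp) and tissue inhibitor of metalloproteinases (Timp) genes were compared between mouse mammary basal cells carrying a Cdk14 short hairpin RNA (Cdk14-sh) and cells carrying a scrambled hairpin (Scramble control). The genes were chosen by symbol, and 5 of the 9 symbols on the list had a row in the table of 15239 genes: Mmp2, Mmp14, Timp1, Timp2 and Timp3. The other 4, Mmp3, Mmp9, Mmp11 and Mmp15, are not analysed here. Each group held 1 library of messenger RNA from cells labelled as normal mammary gland, so differences could not be tested across replicates and p-values are not given. Neither an animal's age or strain nor the number of hairpin sequences is stated, and the labels disagree on the material. The titles and source names give mouse mammary basal cells, whereas the design text names the human breast cancer line MDA-MB-231 and the extraction protocol names retinas. The gene identifiers are those of mouse.

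Matrix metalloproteinases are zinc-dependent enzymes that cut collagens, laminins and other proteins of the extracellular matrix, and most are made as inactive precursors. Timps are small secreted proteins that block their active site. In the mammary gland, the balance of these enzymes and inhibitors takes part in branching, in maintaining the basement membrane around the epithelium and in the regression of the gland after lactation. The members are linked by a known activation step, in which Mmp14 on the cell surface uses Timp2 as a bridge to bind and cut the Mmp2 precursor.

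Levels are in FPKM, fragment numbers scaled to gene length and to the library's total, so genes can be compared with each other. The values correspond to scaling totals of 10177185 reads in Cdk14-sh and 10186924 reads in Scramble control, a ratio of 0.999. Parentheses after a fold or ratio hold its 95% counting interval, which compares 2 libraries and not 2 conditions. The log2 ratio is that of Cdk14-sh over Scramble control after adding 1 FPKM to each value, and a 2-fold difference was counted on that scale. Cdk14, a cyclin Y-dependent kinase of the cell membrane, was at 0.713 FPKM in the Cdk14-sh library and 2.06 FPKM in the Scramble control library, or 34.5% of the control level (25.9 to 45.7). Its log2 ratio after adding 1 FPKM was -0.84, so at this low level Cdk14 was not counted as 2-fold lower.

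The Cdk14-sh library held more Mmp2 transcript and less Timp1 and Timp2 transcript than the Scramble control library, whereas Mmp14 and Timp3 were within 2-fold. Of the 5 members, 1 (Mmp2) was past 2-fold on the higher side and 2 (Timp1 and Timp2) were past it on the lower side. Over the 12819 genes that averaged 1 FPKM or more (the measured genes), the share past 2-fold was 14.3% on the higher side and 13.5% on the lower side. All 5 members averaged over 20 FPKM, and among the 3287 genes at that level the shares were 8.46% on the higher side and 7.7% on the lower side. Timp1 and Timp2 reached that level only through the Scramble control library. The 20 FPKM limit was chosen after the members' values were seen. With 5 genes, these counts are a description only. The median log2 ratio was -0.34 over the members, 0.02 over all measured genes and 0.11 over genes averaging 20 FPKM or more.

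**Figure D1:**
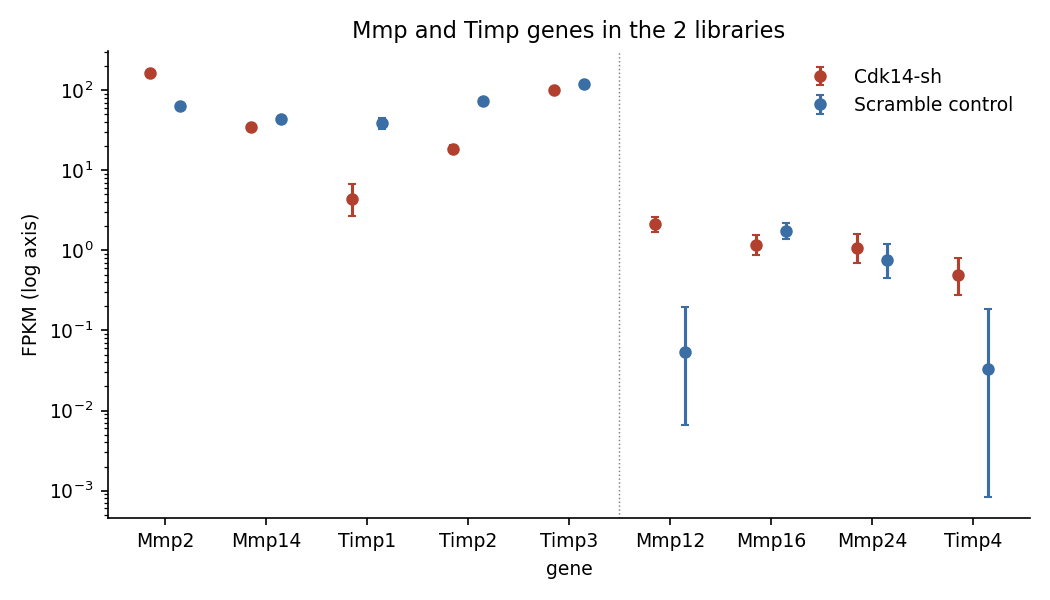
Levels of the Mmp and Timp genes in FPKM (log axis), with the Cdk14-sh library in red and the Scramble control library in blue; bars are 95% Poisson intervals for counting error. Left of the dotted line are the 5 members and right of it 4 related genes. Timp1 stood at 4.43 FPKM in Cdk14-sh and 38.5 FPKM in Scramble control, the widest gap among the members.

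Mmp2 encodes gelatinase A, a secreted enzyme that degrades type IV collagen and denatured collagens. It was at 163 FPKM in the Cdk14-sh library, against 63.1 FPKM in the Scramble control library, from 5582 reads in Cdk14-sh and 2166 in Scramble control. This is 2.58-fold higher (2.40 to 2.77), with a log2 ratio of 1.35. Among all rows ranked by level, Mmp2 was number 393 in Cdk14-sh and number 1116 in Scramble control. Of the 3287 genes averaging 20 FPKM or more, 128 had a log2 ratio as high or higher, Mmp2 included. The gene (ENSMUSG00000031740) lies on the plus strand of chromosome 8 from 92827291 to 92853420 (GRCm38), and none of its exonic bases is shared with another annotated gene.

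Mmp14 encodes MT1-MMP, a membrane-anchored collagenase that also activates Mmp2. Its level was 34.4 FPKM in Cdk14-sh and 43.8 FPKM in Scramble control, from about 2085 reads in Cdk14-sh and 2662 in Scramble control. The ratio was 0.784 (0.722 to 0.851), beyond counting error and short of 2-fold. Mmp14 thus differed in the direction opposite to that of Mmp2, whose precursor it cuts. The ratio of Mmp14 to Mmp2 transcript was 0.211 in Cdk14-sh and 0.695 in Scramble control, 3.29-fold lower (2.95 to 3.67). Mmp14 (ENSMUSG00000000957) lies on chromosome 14 from 54431612 to 54445364, on the plus strand. Its recovered reads did not fall on multiples of 0.5, unlike those of the other 4 members, so its read numbers and intervals are approximate.

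The inhibitors did not move alike. Timp1, a secreted inhibitor of most soluble metalloproteinases that acts poorly on Mmp14, was at 4.43 FPKM in Cdk14-sh, against 38.5 FPKM in Scramble control. It was 8.69-fold lower (5.46 to 14.6), with a log2 ratio of -2.86, the lowest of the members. The interval is wide because 40 reads were recovered in Cdk14-sh, against 348 in Scramble control. In rank, Timp1 was number 8296 of all rows in Cdk14-sh and number 1780 in Scramble control. Of the genes averaging 20 FPKM or more, 14 had a log2 ratio as low or lower, Timp1 included. With a mean of 21.4 FPKM, Timp1 reached that level only through the Scramble control library. A gene this low in Cdk14-sh could pass only with a strongly negative ratio, so its place there does not measure how unusual it is. Timp1 (ENSMUSG00000001131) lies on the plus strand of chromosome X from 20870166 to 20874735 (GRCm38).

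Timp2, the inhibitor that bridges Mmp14 and the Mmp2 precursor, was at 18.7 FPKM in Cdk14-sh, against 73.9 FPKM in Scramble control. From 742 reads in Cdk14-sh and 2933 in Scramble control, it was 3.95-fold lower (3.52 to 4.44), with a log2 ratio of -1.93. It ranked number 3485 in Cdk14-sh and number 921 in Scramble control. Of the genes averaging 20 FPKM or more, 49 had a log2 ratio as low or lower, but Timp2 too reached that level only through the Scramble control library. Timp2 (ENSMUSG00000017466) is on chromosome 11 from 118301069 to 118355740, minus strand. The ratio of Timp1 to Timp2 transcript was 0.237 in Cdk14-sh and 0.521 in Scramble control, so Timp1 was lower by more than Timp2, by a factor between 1.36 and 3.74 at 95% confidence for counting error.

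Timp3 binds to the extracellular matrix and also inhibits the sheddase Adam17 and the aggrecan-cleaving Adamts enzymes. It was at 100.4 FPKM in Cdk14-sh and 119.5 FPKM in Scramble control, from 8325 reads in Cdk14-sh and 9917 in Scramble control. The ratio of 0.840 (0.806 to 0.876) was beyond counting error and short of 2-fold. Timp3 (ENSMUSG00000020044, chromosome 10 from 86300372 to 86349506, plus strand) lies within the bounds of the synapsin gene Syn3, and 21.3% of its exonic bases are shared with Syn3 on the opposite strand. Syn3, whose protein is known from neurons, was listed at 16.0 FPKM in Cdk14-sh and 25.2 FPKM in Scramble control. No source used here says whether reads were counted by strand, so reads of Timp3 and Syn3 cannot be told apart in the shared bases. Timp1 lies within the bounds of the related gene Syn1 but shares no exonic bases with it, and Syn1 was listed at 0.0149 FPKM in both libraries.

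**Figure D2:**
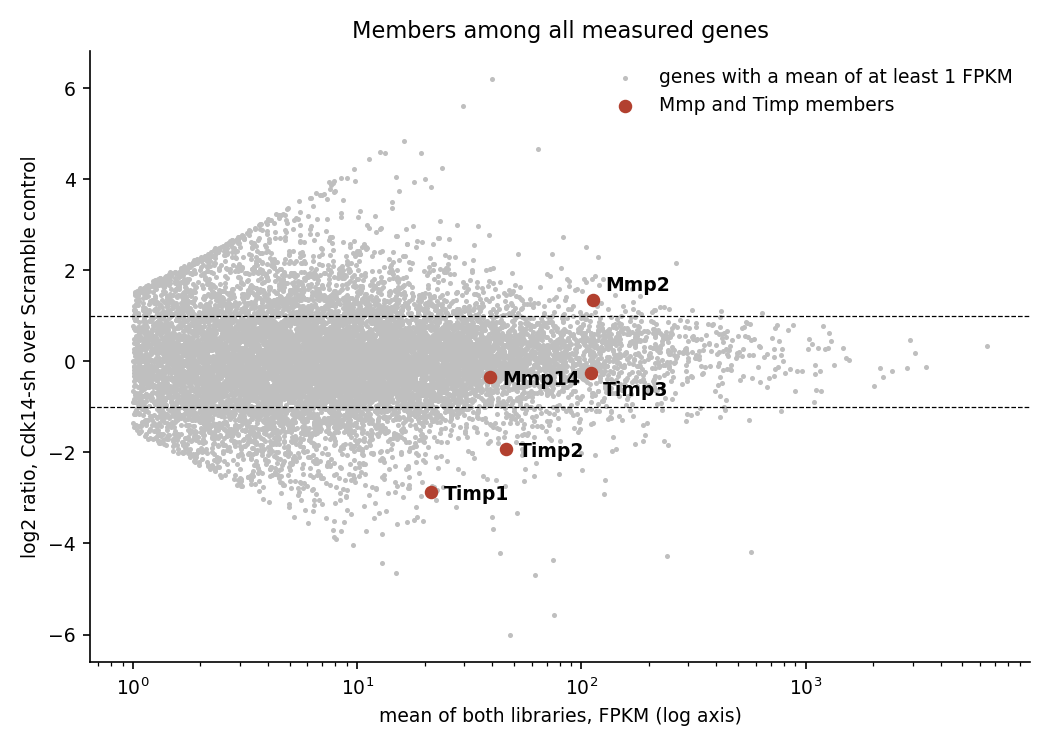
Log2 ratio of Cdk14-sh over Scramble control against the mean FPKM of both libraries (log axis), 1 grey point per measured gene and the 5 members in red; dashed lines mark 2-fold. Timp1 at -2.86 and Timp2 at -1.93 lie below the lower line, Mmp2 at 1.35 lies above the upper line, and Mmp14 and Timp3 lie between the lines.

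The promoter windows of the 3 Timp genes are shown because these related inhibitors differed in how far apart the libraries were. RefSeq sequences (GRCm38.p6) run from 250 bases before to 50 bases after the annotated start, 5′ to 3′ on the gene's strand, and were given for 4 of the 5 members, all but Mmp2. The RefSeq starts of Timp2 and Timp3 lie downstream of the starts in the gene locations given above, which come from another annotation (GENCODE). The whole Timp2 window falls inside those gene bounds. Capitals mark matches on either strand to the letters searched. These were TGANTCA (AP-1), TGAGTAA (an AP-1 variant, added after the Timp1 sequence was read), GGGCGG (the Sp1-binding GC box), TATAAA (the box of that name near many start sites) and CCAAT (the box of that name, bound by NF-Y).
Timp1, chrX:20869916-20870215, plus strand: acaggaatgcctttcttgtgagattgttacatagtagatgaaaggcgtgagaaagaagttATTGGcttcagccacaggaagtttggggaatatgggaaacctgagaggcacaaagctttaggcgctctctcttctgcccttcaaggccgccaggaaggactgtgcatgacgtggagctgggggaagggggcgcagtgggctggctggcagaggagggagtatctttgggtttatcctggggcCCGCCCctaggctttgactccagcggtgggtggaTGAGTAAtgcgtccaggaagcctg
Timp2, chr11:118355362-118355661, minus strand: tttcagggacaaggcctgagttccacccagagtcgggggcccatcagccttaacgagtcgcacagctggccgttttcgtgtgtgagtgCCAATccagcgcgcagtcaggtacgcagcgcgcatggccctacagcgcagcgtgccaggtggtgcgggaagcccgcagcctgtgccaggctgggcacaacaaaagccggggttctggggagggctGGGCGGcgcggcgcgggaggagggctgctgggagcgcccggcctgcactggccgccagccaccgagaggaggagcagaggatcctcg
Timp3, chr10:86300162-86300461, plus strand: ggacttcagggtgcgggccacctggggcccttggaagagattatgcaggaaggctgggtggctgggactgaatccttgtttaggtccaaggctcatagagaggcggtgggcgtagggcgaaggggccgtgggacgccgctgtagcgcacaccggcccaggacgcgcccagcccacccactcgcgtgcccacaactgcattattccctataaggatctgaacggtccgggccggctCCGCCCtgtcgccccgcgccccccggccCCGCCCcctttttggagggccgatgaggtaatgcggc

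Timp1, 8.69-fold lower in Cdk14-sh, has TGAGTAA from base 27 after the start, and this motif occurs in 2.68% of 32851 promoter windows of the same length. As TGAGTAA was added after the Timp1 sequence was read, its match there was fixed in advance, and that share does not measure how unusual it is. Timp1 also has a GC box, found in 35.7% of windows, and a CCAAT box, found in 37.4%. Timp2, 3.95-fold lower, has a GC box and a CCAAT box. Timp3, within 2-fold, has 2 GC boxes and no CCAAT box. Mmp14, also within 2-fold, has both GC and CCAAT boxes in its window, which is not shown. TGANTCA, found in 7.81% of windows, and TATAAA, found in 13.6%, are absent from all 3 Timp windows. GC content was 55.0% for Timp1, 68.7% for Timp2 and 67.0% for Timp3, and the median window had 52.7%. The windows held 8 CpG dinucleotides for Timp1, 25 for Timp2 and 24 for Timp3, against a median of 7. These matches describe letters, and the binding of any factor was not measured.

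Set side by side within each library, the members changed order. In Cdk14-sh the order from high to low was Mmp2, Timp3, Mmp14, Timp2 and Timp1, and the 95% counting intervals of neighbours did not overlap. In Scramble control it was Timp3, Timp2, Mmp2, Mmp14 and Timp1. There Mmp14 (41.5 to 46.3 FPKM) and Timp1 (33.0 to 44.6 FPKM) overlapped, and the other neighbours did not. The 5 members summed to 321 FPKM in Cdk14-sh and 339 FPKM in Scramble control. Mmp2 made up 50.7% of that sum in Cdk14-sh and 18.6% in Scramble control. Timp2 made up 5.84% in Cdk14-sh and 21.8% in Scramble control, and Timp1 made up 1.38% in Cdk14-sh and 11.4% in Scramble control. Timp3 held a similar part of the sum, 31.3% in Cdk14-sh and 35.3% in Scramble control.

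**Figure D3:**
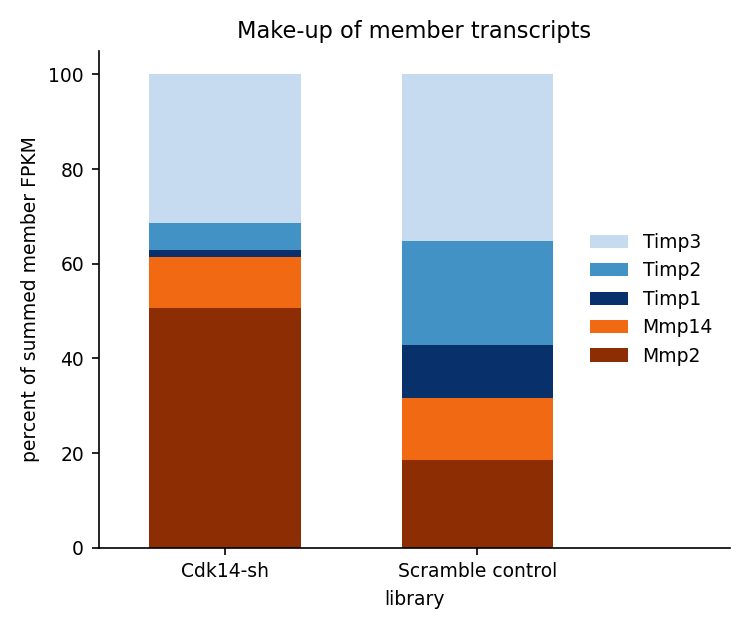
Percent of the summed FPKM of the 5 members that each gene holds, 1 stacked bar per library, with Cdk14-sh on the left and Scramble control on the right. Mmp2 fills 50.7% of the Cdk14-sh bar and 18.6% of the Scramble control bar, and Timp1 with Timp2 (the darker blues) fill less of the Cdk14-sh bar.

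The inhibitor transcripts together were at 124 FPKM in Cdk14-sh and 232 FPKM in Scramble control, and the 2 protease transcripts at 197 FPKM in Cdk14-sh and 107 FPKM in Scramble control. The ratio of summed Timp to summed Mmp transcript was therefore 0.627 in Cdk14-sh and 2.17 in Scramble control, 3.46-fold lower. For the pair with a direct molecular link, Timp2 over Mmp2, the ratio was 0.115 in Cdk14-sh and 1.17 in Scramble control, 10.2-fold lower (8.90 to 11.7). For Timp2 over Mmp14, the partners of the cell-surface complex, it was 0.544 in Cdk14-sh and 1.69 in Scramble control, 3.10-fold lower (2.69 to 3.57). For Timp3 over Mmp2 it was 0.617 in Cdk14-sh and 1.90 in Scramble control, 3.07-fold lower (2.83 to 3.33). These are ratios of transcript levels, and neither protein nor enzyme activity was measured.

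Of 18 further Mmp and Timp symbols, 4 had a row, and all were low. Mmp12, the macrophage metalloelastase, was at 2.12 FPKM in Cdk14-sh, against 0.0543 FPKM in Scramble control, from 156 reads in Cdk14-sh and 4 in Scramble control. The ratio of 39.0 (10.5 to 328) has a wide interval, and Mmp12 passed the 1 FPKM mean only through the Cdk14-sh library. Mmp16, a second membrane-type enzyme, was at 1.18 FPKM in Cdk14-sh and 1.77 FPKM in Scramble control, a ratio of 0.667 (0.461 to 0.960). Mmp24, also membrane-type, was at 1.08 FPKM in Cdk14-sh and 0.765 FPKM in Scramble control, and its ratio of 1.41 (0.746 to 2.73) was within counting error. Timp4 was at 0.492 FPKM in Cdk14-sh and 0.0333 FPKM in Scramble control, from 29.5 reads in Cdk14-sh and 2 in Scramble control, a ratio of 14.8 (2.27 to 622). Mmp24 and Timp4 were under the 1 FPKM mean.

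Enzymes that activate metalloproteinase precursors were on both sides. Among all measured genes, 14.3% were past 2-fold on the higher side and 13.5% on the lower side. Of 13 measured genes of the plasminogen system and the proconvertases, 4 were past 2-fold on the higher side, 2 on the lower side and 7 within 2-fold, with a median log2 ratio of 0.01. The highest were Hpn, which encodes the membrane protease hepsin, Pcsk6, which encodes the proconvertase PACE4, and Plau, which encodes urokinase. Hpn was at 4.41 FPKM in Cdk14-sh and 0.0957 FPKM in Scramble control, a ratio of 46.0 (12.4 to 386). It rests on 4 reads in Scramble control and passed the 1 FPKM mean only through the Cdk14-sh library, so its place among the 4 higher genes is no support for the count. Pcsk6 was 9.43-fold higher (6.03 to 15.5). At 0.813 FPKM in Scramble control, Pcsk6 too passed the 1 FPKM mean only through the Cdk14-sh library. Plau was at 35.6 FPKM in Cdk14-sh and 8.09 FPKM in Scramble control, with a counting interval of 3.52 to 5.54 for the ratio. The lowest were the proconvertase gene Pcsk7, 2.72-fold lower (2.01 to 3.73), the urokinase receptor gene Plaur and the tissue plasminogen activator gene Plat. Plaur was at 85.5 FPKM in Cdk14-sh and 185 FPKM in Scramble control, 2.16-fold lower (2.02 to 2.32), so urokinase and its receptor differed in opposite directions. Plat was at 7.81 FPKM in Cdk14-sh and 15.3 FPKM in Scramble control. Furin, the proconvertase that cuts the Mmp14 precursor, was at 9.60 FPKM in Cdk14-sh and 12.4 FPKM in Scramble control; it was named for that role and not for its rank.

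Of 11 measured genes for surface cofactors, inhibitors and clearance, 10 were within 2-fold, and the median log2 ratio was -0.06. Over all genes, 72.2% of those measured and 83.8% of those at 20 FPKM or more were within 2-fold, so the count is near that background. The exception was Bsg, which encodes basigin (EMMPRIN), an inducer of metalloproteinase expression, at 293 FPKM in Cdk14-sh and 134 FPKM in Scramble control, 2.19-fold higher (2.04 to 2.34). Cav1 (caveolin) and Itgb1 (integrin beta 1) came next, 1.42-fold and 1.22-fold higher. The lowest were the tetraspanin gene Cd63, whose protein binds Timp1, at 545 FPKM in Cdk14-sh and 802 FPKM in Scramble control, and the integrin genes Itgav and Itgb3, 1.45-fold and 1.51-fold lower.

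Adam and Adamts genes encode proteases related to the Mmps. The shares of all measured genes past 2-fold, 14.3% higher and 13.5% lower, are the background for their counts. Of a chosen list of 14, 11 were measured; none of these was past 2-fold on the higher side and 4 were on the lower side, with a median log2 ratio of 0.00. The list did not hold the whole family: over all 19 measured Adam and Adamts genes, 1 was past 2-fold on the higher side and 8 on the lower side, with a median of -0.25. The higher one was Adamts18, at 12.7 FPKM in Cdk14-sh and 2.16 FPKM in Scramble control, 5.86-fold higher (4.79 to 7.23). The 4 lower ones outside the list were Adam30, Adamts3, Adamts8 and Adamts20. All 4 were under 1 FPKM in Cdk14-sh and passed the 1 FPKM mean only through the Scramble control library, so they are no support for the count. These 5 genes were named after their values were seen. Adamts4 was at 5.98 FPKM in Cdk14-sh and 143 FPKM in Scramble control, 23.9-fold lower (20.3 to 28.4). Adamts9 was 4.13-fold lower (3.58 to 4.79) and Adam9 2.73-fold lower (2.45 to 3.05). The highest of the list were the sheddase genes Adam10, 1.54-fold higher (1.39 to 1.70), and Adam17, 1.39-fold higher (1.23 to 1.58), with Adam28 at 7.52 FPKM in Cdk14-sh and 5.58 FPKM in Scramble control. Timp3, which inhibits Adam17 and Adamts4, was itself within 2-fold.

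Matrix proteins that metalloproteinases cut were spread widely. For comparison, 14.3% of all measured genes were past 2-fold on the higher side and 13.5% on the lower side. Of 25 measured, 6 were past 2-fold on the higher side, 5 on the lower side and 14 within 2-fold, with a median log2 ratio of 0.22. Nid1 (nidogen, a linker of the basement membrane) was 13.7-fold higher (9.69 to 19.9), Col3a1 (type III collagen) 7.44-fold higher (5.66 to 9.93) and Fn1 (fibronectin) 8.53-fold higher (6.22 to 12.0). At the low end, Tnc (tenascin C) was 5.80-fold lower (4.10 to 8.41), Col5a2 (type V collagen) 2.98-fold lower (2.52 to 3.54) and Dcn (decorin) 2.53-fold lower (2.37 to 2.71). Nid1, at 0.990 FPKM in Scramble control, and Fn1, at 0.731 FPKM there, passed the 1 FPKM mean only through the Cdk14-sh library. Tnc, at 0.967 FPKM in Cdk14-sh, passed it only through the Scramble control library. The type IV collagen genes Col4a1 and Col4a2, the classical Mmp2 substrates and named for that role, were within 2-fold, at ratios of 1.34 (1.28 to 1.41) and 0.943 (0.887 to 1.00).

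Of 16 measured transcription factor genes whose products are known to act on metalloproteinase and Timp1 promoters, 14 were within 2-fold, with a median log2 ratio of -0.14. That count too is near the background of 72.2% of measured genes and 83.8% of genes at 20 FPKM or more. The AP-1 gene Fos was 2.09-fold lower (2.01 to 2.18), at 283 FPKM in Cdk14-sh and 591 FPKM in Scramble control. Runx2 was 1.99-fold lower (1.58 to 2.52) and Junb 1.69-fold lower (1.62 to 1.76). The Ets factor gene Etv4 was 5.45-fold higher (3.54 to 8.71), Fosl1 1.98-fold higher (1.85 to 2.13) and Jun 1.57-fold higher (1.49 to 1.65). An opposite-strand gene overlaps 57.2% of the exonic bases of Fosl1.

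**Figure D4:**
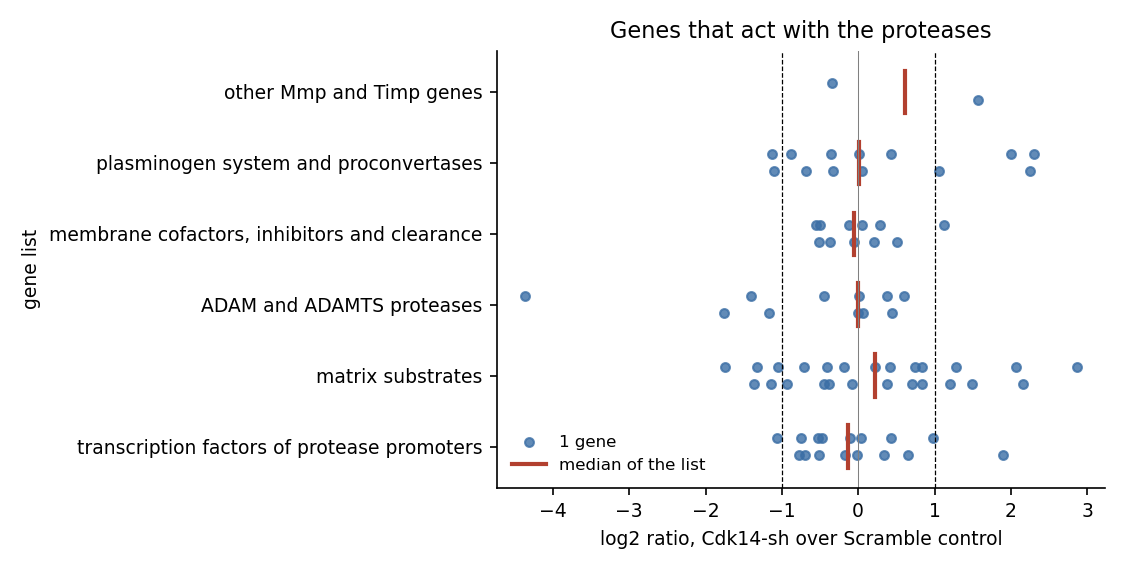
Log2 ratio of Cdk14-sh over Scramble control for each measured gene (blue points) of 6 lists of genes that act with the metalloproteinases, with the median of each list in red and dashed lines at 2-fold. All 11 cofactor, inhibitor and clearance genes but Bsg lie between the lines, and the leftmost point, at -4.37, is Adamts4.

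Several cell types of the gland make Mmp2 and Timps, and in bulk RNA fewer cells of a type and less RNA per cell cannot be told apart. Markers of such cells differed between the libraries along with the members. Their counts stand beside 14.3% of all measured genes past 2-fold on the higher side and 13.5% on the lower side. All 6 measured endothelial markers were at least 2-fold lower, and the 7 of 8 with a row summed to 36.1 FPKM in Cdk14-sh and 198 FPKM in Scramble control. Plvap was 23.3-fold lower (16.7 to 33.5), Emcn 108-fold lower (41.8 to 398) and Pecam1 8.63-fold lower (6.62 to 11.4). By log2 ratio, which adds 1 FPKM to each level, the 3 highest of the list were Cldn5, Cdh5 and Tek. Cldn5 was 2.25-fold lower and Cdh5 7.04-fold lower, and Tek was at 0.125 FPKM in Cdk14-sh and 4.60 FPKM in Scramble control. Emcn, with 8 reads in Cdk14-sh, and Tek, with 6, passed the 1 FPKM mean only through the Scramble control library, so their place among the lower genes is no support for the count. The 5 measured fibroblast markers were divided, with 3 past 2-fold on the higher side and 1, Dcn, on the lower side. Their sum was 76.7 FPKM in Cdk14-sh, of which Dcn held 41.2 FPKM, and 114 FPKM in Scramble control, of which Dcn held 104 FPKM. The highest were Fbln1, 6.86-fold higher (4.74 to 10.2), Col3a1 and Col1a2, 2.71-fold higher (2.30 to 3.19), and Col1a1 was 1.99-fold higher (1.60 to 2.47). The fibroblast markers Pdgfra, Lum and Dpt are not analysed here. Of 4 pericyte markers with a row, out of 6, Mcam, Rgs5 and Abcc9 were at least 2-fold lower and Des was at least 2-fold higher. Des rests on 2 reads in Scramble control and passed the 1 FPKM mean only through the Cdk14-sh library. Abcc9, at 0.657 FPKM in Cdk14-sh, passed it only through the Scramble control library. The pericyte markers' sum was 59.6 FPKM in Cdk14-sh and 127 FPKM in Scramble control.

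The 5 measured immune markers were higher in Cdk14-sh, as Mmp12 was. Of these 5, 4 were at least 2-fold higher, against 14.3% of all measured genes. The 6 of 9 with a row summed to 386 FPKM in Cdk14-sh and 105 FPKM in Scramble control. Cd74 held 175 FPKM of the Cdk14-sh sum and 49.0 FPKM of the Scramble control sum, and H2-Ab1 held 125 FPKM and 23.6 FPKM. The leukocyte gene Ptprc was under the 1 FPKM mean and was not among the measured markers. The class II genes H2-Aa and H2-Ab1 were 9.22-fold (7.53 to 11.4) and 5.28-fold (4.67 to 5.98) higher, and the class II chaperone gene Cd74 was 3.57-fold higher (3.20 to 3.99). The macrophage gene Csf1r was at 4.23 FPKM in Cdk14-sh and 1.04 FPKM in Scramble control, and Cd68 at 32.0 FPKM in Cdk14-sh and 25.8 FPKM in Scramble control. The part of these cell types in the values of Mmp2, Timp1, Timp2 and Mmp12 was not tested.

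Markers of the labelled cell type were detected in both libraries. The 9 basal markers, all measured, summed to 2297 FPKM in Cdk14-sh and 3103 FPKM in Scramble control, with a median log2 ratio of -0.27. Krt14, the basal keratin, was at 994 FPKM in Cdk14-sh and 1199 FPKM in Scramble control. Trp63 was 2.83-fold higher (2.51 to 3.21) and Krt5 1.87-fold higher (1.75 to 1.99), followed by Oxtr at 1.45-fold, whereas the contractile genes Cnn1, Myh11 and Acta2 were 3.37-fold, 2.24-fold and 1.57-fold lower. Some luminal markers were detected as well. Of 10 genes, 8 had a row and 5 of these were measured. Esr1, Kit and Prlr were under the 1 FPKM mean, and Elf5 and Foxa1 are not analysed here. The 8 genes summed to 658 FPKM in Cdk14-sh and 1222 FPKM in Scramble control, mostly from Krt8, Krt18 and Epcam, so the sum says little on the other genes. Krt18 was 3.62-fold and Krt8 2.05-fold lower, and Krt19 was 2.09-fold higher. Epcam was at 273 FPKM in Cdk14-sh and 349 FPKM in Scramble control, and Cldn3 at 9.52 FPKM in Cdk14-sh and 13.1 FPKM in Scramble control.

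**Figure D5:**
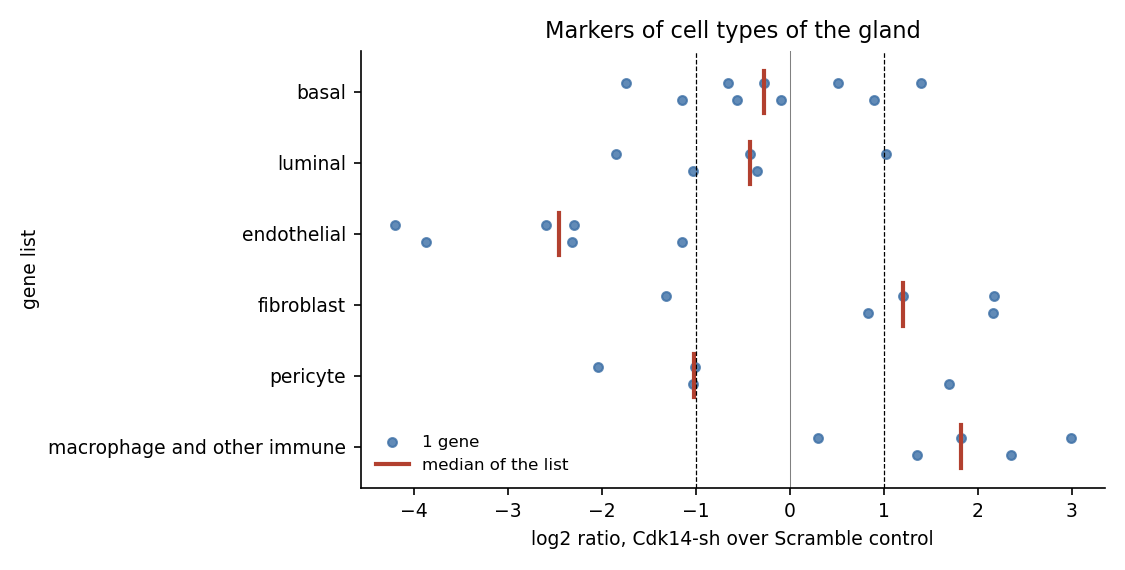
Log2 ratio of Cdk14-sh over Scramble control for each measured marker (blue points) of 6 cell types of the gland, with list medians in red and dashed lines at 2-fold. The endothelial markers all lie left of the lower line, with a median of -2.46, and the immune markers have a median of 1.82.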

How the data were processed

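The authors deposited 1 table of FPKM values, with 1 column for each of 2 libraries. Per the labels' protocols, libraries were made with a stranded mRNA kit. The submitters' processing notes name Bowtie 0.12.2, Subread 1.5.1 and featureCounts as tools and GRCm38 and mm8 as builds, with no role. Filters are not given in the sources used here, and no listed gene is at 0.

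Reads were recovered from the deposited FPKM and the GENCODE M21 (GRCm38) exonic length of each gene. In 79.2% of genes with a length, values fell on multiples of 0.5 reads in both libraries (tolerance 0.01 reads). For the other genes, read numbers and intervals are approximate. Besides Mmp14, the named genes of this kind include Plau, Nid1, Dcn, Fosl1, Cd74, H2-Aa, H2-Ab1, Krt5 and Myh11. The totals and read numbers take 0.5 reads as the smallest step, and 2 reads were taken as 1 fragment. Fold intervals are exact binomial (Clopper-Pearson), level intervals are exact Poisson, and those of a ratio of ratios are conditional odds-ratio intervals. All cover counting error only, because each group held 1 library. PCR copies were not marked by molecular identifiers, so copies may be counted as separate fragments and the intervals may be too narrow.

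Where rows shared a symbol, the row with the higher mean stood for it. Named are the members, all other Mmp and Timp rows, and the 3 highest and 3 lowest genes of each list; others are named for their role. Members and lists were chosen with earlier results of these data known. Python 3.11.15, scipy 1.17.1 and pandas 2.3.3 were used, and the calculations were tested on simulated data. The alternatives were other pseudocounts, scalings, filters and fold limits.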

Additional observations from a re-analysis of the deposited data

How the results depend on the processing

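The log2 ratios of the 5 members were recalculated under 6 alternatives. They included pseudocounts of 0.1 and 5 FPKM and summed rows of a shared symbol. The others scaled the Cdk14-sh values by the median ratio, upper quartiles or the trimmed mean of log ratios. All 5 kept their direction, which says little. A pseudocount cannot reverse a direction, summed rows left the members' values unchanged, and the scaling factors lay between 0.984 and 0.988. Of the 30 recalculated member values, 28 stayed within the counting interval. The exceptions came with a pseudocount of 5 FPKM, where Timp1 was at -2.21 and Timp2 at -1.73 on the log2 scale. Over all of them Timp1 ranged from -3.09 to -2.21, Timp2 from -1.98 to -1.73, Mmp2 from 1.30 to 1.37, Mmp14 from -0.37 to -0.31 and Timp3 from -0.27 to -0.24. With a 4-fold limit, 0 members were higher and 1, Timp1, was lower.

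Counts over all genes at least 2-fold higher and lower, 1828 and 1734, became 677 and 611 with a pseudocount of 5 FPKM and 946 and 908 with a mean of at least 5 FPKM. They were 3239 and 3139 at a 1.5-fold limit and 419 and 345 at a 4-fold limit. No paired analysis was possible because each group holds 1 library, and no library could be left out. Low read numbers limit the precision of some folds: Timp1 rests on 40, Emcn on 8 and Tek on 6 reads in Cdk14-sh, and Mmp12 and Hpn on 4 and Timp4 and Des on 2 reads in Scramble control.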
